A study of Mus musculus with 12 samples.

Results

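Tight junction genes and claudins were followed in sorted stromal cells of the mouse thymus. The 9 genes, chosen by symbol, were the claudins Cldn1, Cldn3, Cldn4, Cldn5, Cldn7 and Cldn12, the occludin gene Ocln, the junctional adhesion molecule gene F11r and the scaffold gene Tjp1. They are 9 of the 23306 gene symbols of the deposited table, and all 9 were among the 14792 genes that passed the filter on low counts. The study compared polyadenylated RNA of 4 populations sorted from C57 BL6 mice with a tomato reporter for Kit ligand, with 3 libraries each, and its title names an endothelial and epithelial niche that provides Kit ligand to T-cell progenitors. Vascular endothelial cells (VEC) were sorted as lineage-negative, EpCAM- CD31+ cells, with tomato signal (tomato+ VEC) or without it (tomato- VEC). Epithelial cells (TEC) were sorted as EpCAM+ CD31- cells, cortical ones as UEA1- Ly51+ with tomato signal (tomato+ cTEC) and medullary ones as UEA1+ Ly51- without it (tomato- mTEC). All mice carried the reporter, and no age is stated in the labels. In the epithelial pair the reporter changes together with the UEA1 and Ly51 gate, so reporter and cell type cannot be told apart there. The labels do not say whether the 3 libraries of a group came from separate mice, so p-values measure the spread between these libraries, which may be technical.

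Tight junctions seal the space between neighbouring cells of an epithelium or endothelium. Claudins are small membrane proteins with 4 membrane passes that bind claudins of the next cell and set which ions and molecules may pass between the cells. Occludin and junctional adhesion molecules are further membrane proteins of the junction, and zonula occludens proteins such as ZO-1, the product of Tjp1, tie them to actin from the cytoplasmic side. In the mouse thymus, Cldn3 and Cldn4 are known as surface markers of medullary epithelial cells of the Aire lineage, and Cldn5 is the claudin that endothelial barriers of brain and other tissues depend on.

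Levels of a gene are given below as CPM, counts scaled to a common library size by TMM, and levels of different genes are compared only in the deposited RPKM, which is also per kilobase of gene length. A difference was called when the adjusted p of edgeR's quasi-likelihood test, fitted over all 12 libraries, was under 0.05. Total counts per library were 8388869 to 11807130. The sorting gates were visible in the RNA, since the 10 endothelial markers summed to 10328 to 11490 CPM in tomato+ VEC and 12725 to 15885 CPM in tomato- VEC, against 12.0 to 418 CPM in cTEC and 30.8 to 78.9 CPM in mTEC. The 8 epithelial markers summed to 0.785 to 1.66 CPM in tomato+ VEC and 0.779 to 1.59 CPM in tomato- VEC, against 3836 to 4455 CPM in cTEC and 3022 to 3815 CPM in mTEC. Kitl itself was at 775 to 1546 CPM in tomato+ VEC, 393 to 472 CPM in tomato- VEC, 182 to 249.9 CPM in cTEC and 4.53 to 35.5 CPM in mTEC. These are bulk libraries, so fewer cells that express a gene and less RNA per cell cannot be told apart.

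Endothelium and epithelium differed in most members, and F11r and Tjp1 had reads in all 12 libraries. Cldn5, Tjp1 and F11r were higher in VEC, Cldn1, Cldn3, Cldn4, Cldn7 and Ocln were lower in VEC, and Cldn12 did not pass the test. These are 8 of 9 members called, 3 higher and 5 lower, where 36.3% of all tested genes were called (14.4% higher and 21.8% lower). Members were chosen with earlier results of these data known, so these shares describe them and test nothing. The median fitted log2 fold change, VEC over TEC, was -5.11 over the 9 members and -0.18 over all tested genes. The member median is the fitted value of Ocln, whose pooled counts gave a smaller ratio, 9.72-fold lower in VEC. In 5 of the 9 members the 6 VEC and 6 TEC libraries did not overlap, as in 17% of all tested genes: 3 lay higher in VEC (7.49% of all tested genes) and 2, Cldn1 and Cldn4, lower (9.49%). Markers of other cells moved with this comparison. The 8 mesenchymal markers summed to 20.5 to 51.8 CPM in tomato+ VEC and 21.7 to 55.2 CPM in tomato- VEC, against 1905 to 2286 CPM in cTEC and 713 to 948 CPM in mTEC, with 7 of the 8 tested lower in VEC. The 11 thymocyte markers summed to 4.84 to 22.1 CPM in tomato+ VEC and 9.99 to 35.4 CPM in tomato- VEC, against 61.3 to 112 CPM in cTEC and 23.5 to 40.2 CPM in mTEC, with 6 of the 9 tested lower in VEC. The 7 myeloid markers summed to 16.1 to 48.1 CPM in tomato+ VEC and 6.05 to 67.5 CPM in tomato- VEC, against 9.80 to 159 CPM in cTEC and 358 to 402 CPM in mTEC, with 2 of the 4 tested lower in VEC. The part of these markers in the member values was not tested.

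**Figure D1:**
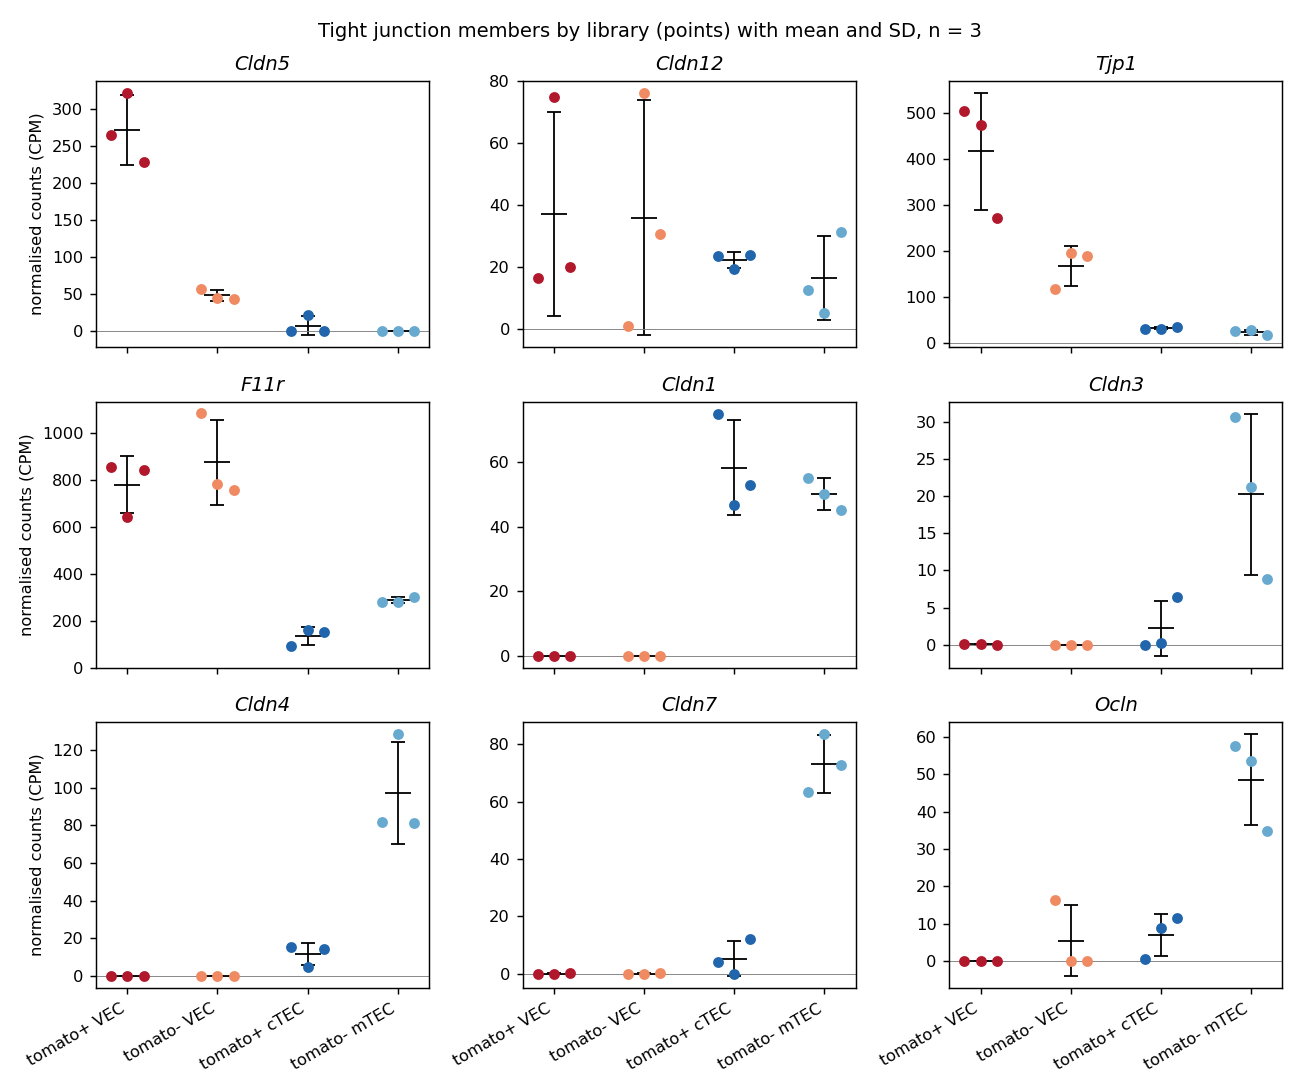
TMM-normalised CPM of the 9 members in each of the 12 libraries (points), with the mean and SD of the 3 libraries of a group (bars); each panel has its own axis. Cldn5, Tjp1 and F11r sit highest in the 2 VEC groups, while Cldn1, Cldn3, Cldn4, Cldn7 and Ocln are at or near 0 in all VEC libraries but 1, tomato- VEC replicate 1 for Ocln.

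Cldn5, the endothelial claudin, had 265, 322 and 229 CPM in the 3 tomato+ VEC libraries and 56.9, 44.8 and 43.3 CPM in the 3 tomato- VEC libraries. It had 0.0917, 22.0 and 0 CPM in the cTEC libraries. It had 0, 0.116 and 0.240 CPM in the mTEC libraries. Every VEC library lay above every TEC library, and among the TEC libraries cTEC replicate 2 stood alone. The fitted log2 fold change, VEC over TEC, was 6.83 ± 1.21 (SE, edgeR adjusted p = 0.000879). The ratio of 8462 counts in VEC to 229 in TEC was 43.9-fold higher in VEC. Without cTEC replicate 2 the fitted value was 10.35 with an edgeR adjusted p of 1.28e-07. That value rests on 1 count in cTEC and 4 in mTEC and is no bound. In cTEC replicate 2 the endothelial markers summed to 418 CPM, against 65.2 and 12.0 CPM in the other cTEC libraries. Pecam1 was at 108 CPM there, against 1.74 and 0.433 CPM. The part of these markers in the Cldn5 level was not tested.

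The upstream sequences of 3 claudins are shown because they lie on opposite sides of the endothelial-epithelial comparison: Cldn5 was higher in VEC, and Cldn3 and Cldn4, both on chromosome 5 and known as medullary markers, were lower. Each is the 250 bases before the gene's start in RefSeq, build GRCm38.p6, read 5′ to 3′ on the gene's strand. Cldn5 is at chr16:18776597-18776846 on the plus strand, Cldn3 at chr5:134985964-134986213 on the plus strand and Cldn4 at chr5:134946935-134947184 on the minus strand. Capitals mark matches, on either strand, to GGGCGG (the GC box), CANNTG (the E-box) and AACNGGTT (the core known for grainyhead-like factors), and no marked matches overlap.
Cldn5: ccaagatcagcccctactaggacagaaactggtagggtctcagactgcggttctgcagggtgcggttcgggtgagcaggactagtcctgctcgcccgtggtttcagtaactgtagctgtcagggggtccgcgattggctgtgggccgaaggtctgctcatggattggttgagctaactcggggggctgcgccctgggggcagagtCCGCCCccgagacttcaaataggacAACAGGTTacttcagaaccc
Cldn3: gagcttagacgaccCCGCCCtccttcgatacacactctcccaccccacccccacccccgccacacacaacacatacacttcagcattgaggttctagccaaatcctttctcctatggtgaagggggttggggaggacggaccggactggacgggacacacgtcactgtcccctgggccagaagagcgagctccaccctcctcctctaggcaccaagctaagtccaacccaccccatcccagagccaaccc
Cldn4: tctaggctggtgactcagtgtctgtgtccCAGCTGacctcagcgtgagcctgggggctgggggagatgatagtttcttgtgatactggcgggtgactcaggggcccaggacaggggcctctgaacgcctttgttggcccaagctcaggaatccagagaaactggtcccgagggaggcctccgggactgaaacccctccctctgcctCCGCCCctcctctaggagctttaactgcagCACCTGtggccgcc
The Cldn5 window held 1 match to GGGCGG and 1 to AACNGGTT, the Cldn3 window 1 to GGGCGG, and the Cldn4 window 2 to CANNTG and 1 to GGGCGG. Of 32851 RefSeq windows of the same length, 32.7% held GGGCGG, 66.2% CANNTG and 1.79% AACNGGTT. GGAA, the core known for ETS factors, was in 93.4% of the windows, once in the Cldn4 window and not in the Cldn5 or Cldn3 windows. TATAAA, searched likewise, was in 12.4% of the windows and in none of the 3. ACAAAG was in 16.5% of the windows and once in the Cldn4 window. A match describes the letters only, and the series holds no data on binding at these windows.

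Cldn1, the claudin that epidermal barriers depend on, had no count in any of the 6 VEC libraries. It had 75.1, 46.8 and 53.1 CPM in cTEC libraries and 55.0, 50.2 and 45.1 CPM in mTEC libraries. The summed counts were 0 in VEC and 3475 in TEC, which puts Cldn1 at least 974-fold lower in VEC when 3 counts over the 6 libraries are taken as the floor (edgeR adjusted p = 3.30e-06). The cTEC and mTEC libraries overlapped, with cTEC replicate 1 the highest.

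Cldn4, a claudin of tight epithelia, had 0, 0 and 0.214 CPM in tomato+ VEC libraries and no count in tomato- VEC libraries. It had 15.2, 4.70 and 14.5 CPM in cTEC libraries and 81.6, 128 and 81.3 CPM in mTEC libraries. No VEC library reached the lowest TEC library. With 2 counts in VEC and 3346 in TEC the ratio was 1407-fold lower in VEC (95% counting interval 389 to 11624.5; edgeR adjusted p = 1.14e-05). Both VEC counts came from tomato+ VEC replicate 3, and without that library the edgeR adjusted p was 3.50e-05. Counting intervals here cover counting error only.

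Cldn7, a claudin of many epithelia that also lies along the sides of cells, had 0, 0 and 0.107 CPM in tomato+ VEC libraries and 0, 0 and 0.112 CPM in tomato- VEC libraries. It had 3.94, 0 and 11.9 CPM in cTEC libraries and 63.4, 83.6 and 72.8 CPM in mTEC libraries. The mTEC libraries held most of its counts, and cTEC replicate 2 had none. The ratio of 2 counts in VEC to 2465 in TEC was 1037-fold lower in VEC (95% counting interval 287 to 8565; edgeR adjusted p = 0.000252).

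Cldn3, which is often found beside Cldn4 in epithelia, had 0.104, 0.131 and 0 CPM in tomato+ VEC libraries and no count in tomato- VEC libraries. It had 0, 0.196 and 6.41 CPM in cTEC libraries and 30.6, 21.2 and 8.90 CPM in mTEC libraries. The lowest TEC library was as empty as the VEC libraries, so VEC and TEC overlapped. The ratio of 2 counts in VEC to 686 in TEC was 289-fold lower in VEC (95% counting interval 79.6 to 2387; edgeR adjusted p = 0.00406). The fitted log2 fold change was -7.64, and -5.43 without cTEC replicate 3 (edgeR adjusted p = 0.0101).

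Cldn12, a widely expressed claudin that lacks the PDZ-binding tail of most claudins, had 16.5, 75.1 and 20.0 CPM in tomato+ VEC libraries and 1.11, 76.2 and 30.7 CPM in tomato- VEC libraries. It had 23.6, 19.4 and 24.0 CPM in cTEC libraries and 12.7, 5.35 and 31.5 CPM in mTEC libraries. The libraries of a VEC group differed more among themselves than the groups did. Its log2 fold change, VEC over TEC, was 0.93 ± 0.76 (SE, edgeR adjusted p = 0.385).

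Ocln, which encodes occludin, had 0, 0.131 and 0 CPM in tomato+ VEC libraries and 16.5, 0 and 0 CPM in tomato- VEC libraries. It had 0.550, 8.92 and 11.4 CPM in cTEC libraries and 57.7, 53.5 and 34.8 CPM in mTEC libraries. Of the 149 endothelial Ocln counts 148 came from tomato- VEC replicate 1. The fitted log2 fold change, VEC over TEC, was -5.11 ± 1.50 (SE, edgeR adjusted p = 0.0184), and -9.47 without that library (edgeR adjusted p = 0.000391). The 8 epithelial markers summed to 0.779 CPM in tomato- VEC replicate 1, the lowest of the VEC libraries. The 8 erythroid and platelet markers summed to 197 CPM there, against 3.32 to 19.4 CPM in the other VEC libraries. The part of the erythroid and platelet markers in the Ocln level was not tested.

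F11r, which encodes the junctional adhesion molecule JAM-A, had 857, 641 and 843 CPM in tomato+ VEC libraries and 1085, 784 and 758 CPM in tomato- VEC libraries. It had 90.5, 161 and 151 CPM in cTEC libraries and 282, 279 and 301 CPM in mTEC libraries. It was abundant in all 12 libraries and in every VEC library above every TEC library. The log2 fold change, VEC over TEC, was 2.07 ± 0.18 (SE, edgeR adjusted p = 3.28e-06).

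Tjp1, the gene of the scaffold ZO-1, had 505, 475 and 272 CPM in tomato+ VEC libraries and 119, 197 and 189.7 CPM in tomato- VEC libraries. It had 31.5, 31.1 and 36.0 CPM in cTEC libraries and 25.4, 28.3 and 17.5 CPM in mTEC libraries. The VEC and TEC libraries were far apart, with the lowest VEC library at 119 CPM and the highest TEC library at 36.0 CPM. The log2 fold change, VEC over TEC, was 3.25 ± 0.23 (SE, edgeR adjusted p = 6.25e-07).

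**Figure D2:**
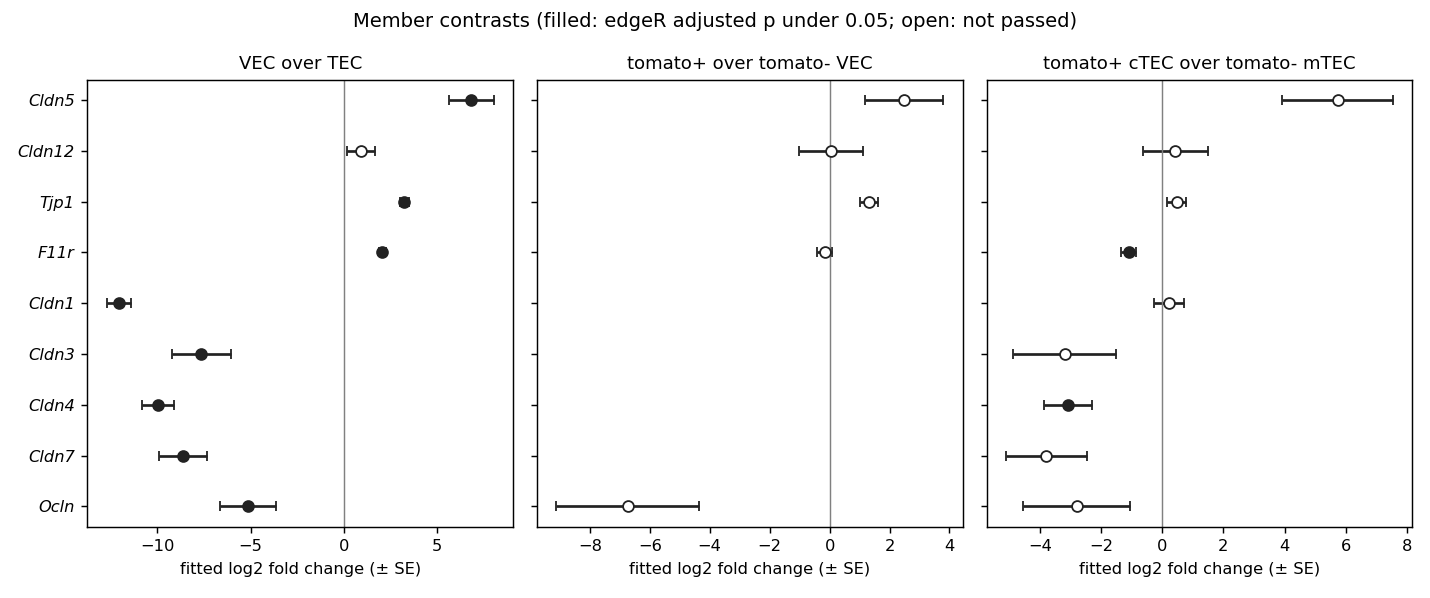
Fitted log2 fold change (point) and its standard error (bar) of each member in 3 comparisons. The standard error is the absolute log2 fold change divided by the square root of the test's F statistic. Each panel's title names which group is over which, and filled points passed an edgeR adjusted p under 0.05. Cldn1, Cldn3, Cldn4 and Cldn7 have no point in the comparison of VEC groups, where both groups held at most 3 counts, and the fitted values of genes with 2 or fewer counts in a group depend on the fit's prior and are no bound. Filled points are 8 in the comparison of VEC with TEC, none in that of VEC groups and 2 in that of epithelial groups.

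Within the endothelium, the comparison of tomato+ with tomato- VEC addresses how endothelial cells with tomato signal differ from those without it. Kitl RNA was present in both, at 775 to 1546 CPM in tomato+ VEC and 393 to 472 CPM in tomato- VEC. None of the 9 members passed the test, where 1.65% of all tested genes did (0.568% higher and 1.08% lower). At an unadjusted p under 0.05, 2 members passed (Tjp1 and Ocln), as did 16.2% of all tested genes. DESeq2 called the same 2, and 9% of the genes it gave an adjusted p. The tomato+ and tomato- libraries did not overlap in 2 of the 9 members, Cldn5 and Tjp1, both higher in tomato+ VEC, as in 15.8% of all tested genes (7.46% higher and 8.32% lower). Among markers of cortical epithelium, the defining genes Psmb11 (5 counts in each VEC group) and Prss16 (5 in tomato+ VEC and 4 in tomato- VEC) were near 0, and so was the medullary Aire (0 in tomato+ VEC and 1 in tomato- VEC). The 7 cortical markers summed to 2369 to 3005 CPM in tomato+ VEC and 4854 to 6405 CPM in tomato- VEC, most of it from 2 genes with opposite orders, Ctsl (27259 counts in tomato+ VEC, against 156426 in tomato- VEC) and Cxcl12 (43925 in tomato+ VEC, against 3267 in tomato- VEC). The 7 medullary markers summed to 9.64 to 86.4 CPM in tomato+ VEC and 152 to 352 CPM in tomato- VEC, most of it from Ccl21a (41 counts in tomato+ VEC, against 5665 in tomato- VEC) and Tnfrsf11a (1230 in tomato+ VEC and 1932 in tomato- VEC). Epcam was at 0 CPM in tomato+ VEC and 0 to 0.212 CPM in tomato- VEC. The median log2 fold change was 0.05 over the members and 0 over all tested genes.

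Cldn5 averaged 272 ± 46.7 CPM in tomato+ VEC and 48.3 ± 7.46 CPM in tomato- VEC (SD, n = 3 each), a fitted log2 fold change of 2.49 ± 1.31 (SE, edgeR adjusted p = 0.386). The spread estimate of this fit includes the cTEC libraries, of which replicate 2 stood apart for Cldn5. With the 6 VEC libraries alone the value was 2.50 and the edgeR adjusted p 0.00687. Without cTEC replicate 2 it was 2.54 with an edgeR adjusted p of 0.0166. In 18 of 20 alternatives Cldn5 stayed uncalled. That held for 11 of the 12 fits with a library left out, where the edgeR adjusted p reached 0.537.

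Tjp1 averaged 417 ± 127 CPM in tomato+ VEC and 168 ± 43.1 CPM in tomato- VEC (SD, n = 3 each). The log2 fold change was 1.31 ± 0.30 (SE, edgeR adjusted p = 0.0548), just outside the threshold. Without tomato+ VEC replicate 3, the lowest of its group, it was 1.59 with an edgeR adjusted p of 0.0216. DESeq2 gave an adjusted p of 0.00344, and a stricter filter of at least 5 CPM in 3 libraries gave an edgeR adjusted p of 0.0463. In 17 of 20 alternatives Tjp1 stayed uncalled. That held for 11 of the 12 fits with a library left out, where the edgeR adjusted p reached 0.146.

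F11r averaged 780.3 ± 120.4 CPM in tomato+ VEC and 876 ± 182 CPM in tomato- VEC (SD, n = 3 each), a log2 fold change of -0.17 ± 0.24 (SE, edgeR adjusted p = 0.804). The libraries overlapped. Cldn12 averaged 37.2 ± 32.8 CPM in tomato+ VEC and 36.0 ± 37.8 CPM in tomato- VEC (SD, n = 3 each), with a log2 fold change of 0.05 ± 1.06 (SE, edgeR adjusted p = 1). For Ocln 1 count in tomato+ VEC stood against 148 in tomato- VEC, all in replicate 1, with an edgeR adjusted p of 0.188 and a DESeq2 adjusted p of 0.0150. Cldn1, Cldn3, Cldn4 and Cldn7 had at most 2 counts in either VEC group and allow no fold there.

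Within the epithelium, tomato+ cTEC were compared with tomato- mTEC. Of the 9 members 2 passed the test, Cldn4 and F11r, both lower in cTEC, where 7.83% of all tested genes passed (2.73% higher and 5.1% lower). The median log2 fold change, cTEC over mTEC, was -1.10 over the members and 0.02 over all tested genes. The libraries did not overlap in 6 of the 9 members, as in 39% of all tested genes: Tjp1 lay higher in every cTEC library (18.7% of all tested genes), and Cldn3, Cldn4, Cldn7, Ocln and F11r lay lower (20.3%). Markers of other cells moved between these groups too. The 8 mesenchymal markers summed to 1905 to 2286 CPM in cTEC and 713 to 948 CPM in mTEC, the 7 myeloid ones to 9.80 to 159 CPM in cTEC and 358 to 402 CPM in mTEC, and the 11 thymocyte ones to 61.3 to 112 CPM in cTEC and 23.5 to 40.2 CPM in mTEC. The 8 erythroid and platelet markers summed to 0.294 to 2.94 CPM in cTEC and 40.02 to 77.4 CPM in mTEC. Their part in the member values was not tested.

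Cldn4 averaged 11.5 ± 5.87 CPM in cTEC and 97.1 ± 27.2 CPM in mTEC (SD, n = 3 each). Its log2 fold change was -3.08 ± 0.78 (SE, edgeR adjusted p = 0.0410). Leaving out any 1 of the cTEC or mTEC libraries ended this call, with edgeR adjusted p values of 0.0988 to 0.164, while the size stayed between -3.36 and -2.73. A fit with the replicate number as a block ended it too.

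F11r averaged 134 ± 38.1 CPM in cTEC and 287 ± 11.8 CPM in mTEC (SD, n = 3 each). Its log2 fold change was -1.10 ± 0.25 (SE, edgeR adjusted p = 0.0205). The call was lost without cTEC replicate 1 (edgeR adjusted p = 0.0607) and without mTEC replicate 1, 2 or 3 (0.0666, 0.0627 and 0.0650).

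Cldn7 averaged 5.30 ± 6.09 CPM in cTEC and 73.2 ± 10.1 CPM in mTEC (SD, n = 3 each). The libraries did not overlap, yet the log2 fold change of -3.78 ± 1.32 (SE) had an edgeR adjusted p of 0.112, with a DESeq2 adjusted p of 0.0306. Cldn3 averaged 2.20 ± 3.64 CPM in cTEC and 20.2 ± 10.9 CPM in mTEC (SD, n = 3 each), a log2 fold change of -3.19 ± 1.69 (SE, edgeR adjusted p = 0.344). Ocln averaged 6.97 ± 5.70 CPM in cTEC and 48.6 ± 12.2 CPM in mTEC (SD, n = 3 each), a log2 fold change of -2.80 ± 1.76 (SE, edgeR adjusted p = 0.439).

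The remaining members did not pass the test between the epithelial groups. Cldn1 averaged 58.3 ± 14.8 CPM in cTEC and 50.1 ± 4.92 CPM in mTEC (SD, n = 3 each), with a log2 fold change of 0.22 ± 0.50 (SE, edgeR adjusted p = 0.896). Tjp1 averaged 32.8 ± 2.75 CPM in cTEC and 23.7 ± 5.58 CPM in mTEC (SD, n = 3 each), with a log2 fold change of 0.47 ± 0.30 (SE, edgeR adjusted p = 0.450). Cldn12 averaged 22.3 ± 2.53 CPM in cTEC and 16.5 ± 13.5 CPM in mTEC (SD, n = 3 each), with an edgeR adjusted p of 0.906. Cldn5 gave a log2 fold change of 5.73 ± 1.81 (SE, edgeR adjusted p = 0.0780) that rests on cTEC replicate 2 and was -1.28 without it (edgeR adjusted p = 0.689). Without cTEC replicate 3 Cldn5 passed, at 6.37 with an edgeR adjusted p of 0.0308.

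Whether the reporter contrast of the endothelium differed from that of the epithelium was tested as the difference of both log2 fold changes. None of the 9 members passed, where 3.08% of all tested genes did (1.54% higher and 1.54% lower). At an unadjusted p under 0.05, 2 members passed, F11r and Cldn4, as did 17.6% of all tested genes, and the VEC side of Cldn4 rests on 2 counts in tomato+ VEC and none in tomato- VEC. DESeq2 called no member, and 9.98% of the genes it gave an adjusted p. For F11r the difference was 0.93 ± 0.34 (SE, edgeR adjusted p = 0.171) and for Tjp1 0.84 ± 0.42 (SE, edgeR adjusted p = 0.340). A p above the threshold does not show that the contrasts were alike.

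Ordering the 4 groups by the level of each member shows which steps passed the test. Of all tested genes, 21.9% were called between tomato+ VEC and cTEC (9.45% higher and 12.4% lower), 31.8% between tomato+ VEC and mTEC (12.4% and 19.4%), 19.2% between tomato- VEC and cTEC (8.63% and 10.6%) and 27.5% between tomato- VEC and mTEC (10.6% and 16.9%). Cldn5 and Tjp1 were highest in tomato+ VEC and then in tomato- VEC, cTEC and mTEC. For Tjp1 the step between tomato- VEC and cTEC passed the test (log2 difference 2.36 ± 0.31 (SE), edgeR adjusted p = 0.000250) and the steps on either side of it did not. No single step passed for Cldn5 in the fit over all 12 libraries, whose spread estimate includes cTEC replicate 2. With the 6 VEC libraries alone its step between the VEC groups passed (edgeR adjusted p = 0.00687), while in 18 of 20 alternatives it did not. In the fit over all 12 libraries, tomato+ VEC over cTEC passed for Cldn5 (log2 difference 5.21, edgeR adjusted p = 0.0253). So did tomato+ VEC over mTEC (log2 difference 10.95, edgeR adjusted p = 0.00186) and tomato- VEC over mTEC (8.45, edgeR adjusted p = 0.00665).

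F11r had its 4 groups in the order tomato- VEC, tomato+ VEC, mTEC and cTEC, and both steps after the first passed the test. The step between tomato+ VEC and mTEC was 1.44 ± 0.25 (SE, log2, edgeR adjusted p = 0.00113). Cldn3, Cldn4, Cldn7 and Ocln were highest in mTEC and then in cTEC. For Cldn4 each of the steps from mTEC to cTEC and from cTEC to tomato+ VEC passed, the second with an edgeR adjusted p of 0.000977. For Cldn7 the step from cTEC to tomato- VEC passed (edgeR adjusted p = 0.0167) and that from mTEC to cTEC did not. For Cldn3 and Ocln no step passed, although Cldn3 in tomato+ VEC was lower than in mTEC (edgeR adjusted p = 0.0209), as was Ocln (edgeR adjusted p = 0.0132). Tomato- VEC against mTEC passed for Cldn3 (edgeR adjusted p = 0.0122) and not for Ocln (edgeR adjusted p = 0.234). Cldn1 had a single step that passed, from mTEC to VEC, and Cldn12 had none.

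Levels per kilobase allow the members' RNA to be compared with each other. In RPKM, F11r averaged 284 ± 43.0 in tomato+ VEC, 332 ± 58.6 in tomato- VEC, 59.8 ± 16.7 in cTEC and 122 ± 6.37 in mTEC (SD, n = 3 each), the highest of the 9 members in every group. Cldn5 followed in tomato+ VEC with 173 ± 29.7 RPKM and in tomato- VEC with 32.1 ± 3.97 RPKM. In cTEC the next was Cldn1 with 20.0 ± 5.22 RPKM. In mTEC the next were Cldn7 with 58.6 ± 6.73 RPKM and Cldn4 with 56.2 ± 14.3 RPKM, 2 levels that lie within each other's SD. Tjp1 was at 53.3 ± 15.9 RPKM in tomato+ VEC and 3.53 ± 0.799 RPKM in mTEC.

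The composition of the claudins in each library was taken as the share of each of 25 claudin symbols in their summed RPKM. These shares are made of the values described above and get no test of their own. A share also moves when the levels of other claudins change. Cldn5 held 59.9 to 76.9% of claudin RPKM in tomato+ VEC and 23.2 to 32.2% in tomato- VEC, against 0 to 12.6% in cTEC and 0 to 0.0725% in mTEC. The highest cTEC share was again that of replicate 2. Cldn1, Cldn3, Cldn4 and Cldn7 averaged 0 to 0.0208% each over the 6 VEC libraries, against 3.35 to 11.7% each over the 6 TEC libraries.

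Claudins outside the 9 filled much of the rest. Cldn15, a claudin that forms cation pores in the gut, held 13.6 ± 8.39% in tomato+ VEC and 6.08 ± 5.18% in tomato- VEC, against 3.86 ± 3.09% in cTEC and 0.0126 ± 0.0109% in mTEC (SD, n = 3 each). Cldn8 held 14.4 ± 6.63% in cTEC and 1.40 ± 0.615% in mTEC. Cldn13 held 14.6, 9.14 and 0% in the 3 tomato- VEC libraries and at most 0.0967% in tomato+ VEC, against 0.0437 ± 0.0757% in cTEC and 15.6 ± 6.21% in mTEC. Cldn11 held 0% in tomato+ VEC and 8.42, 5.50 and 0.0631% in the tomato- VEC libraries. Cldn9 held 0.449 ± 0.731% in cTEC and 7.33 ± 1.67% in mTEC. The symbol Cldn25 held 14.7 ± 2.02% in tomato+ VEC, 43.1 ± 9.71% in tomato- VEC, 45.8 ± 2.54% in cTEC and 20.5 ± 2.35% in mTEC. Its own level did not pass in VEC against TEC, between VEC groups or between epithelial groups (edgeR adjusted p = 0.185, 0.575 and 0.888). In RefSeq that symbol is an older name of both Cldnd1 and Cldn25-ps, so the gene behind these reads is uncertain. Without it Cldn5 held 66.0 ± 19.7% over the 6 VEC libraries and 4.13% on average over the 6 TEC libraries.

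**Figure D3:**
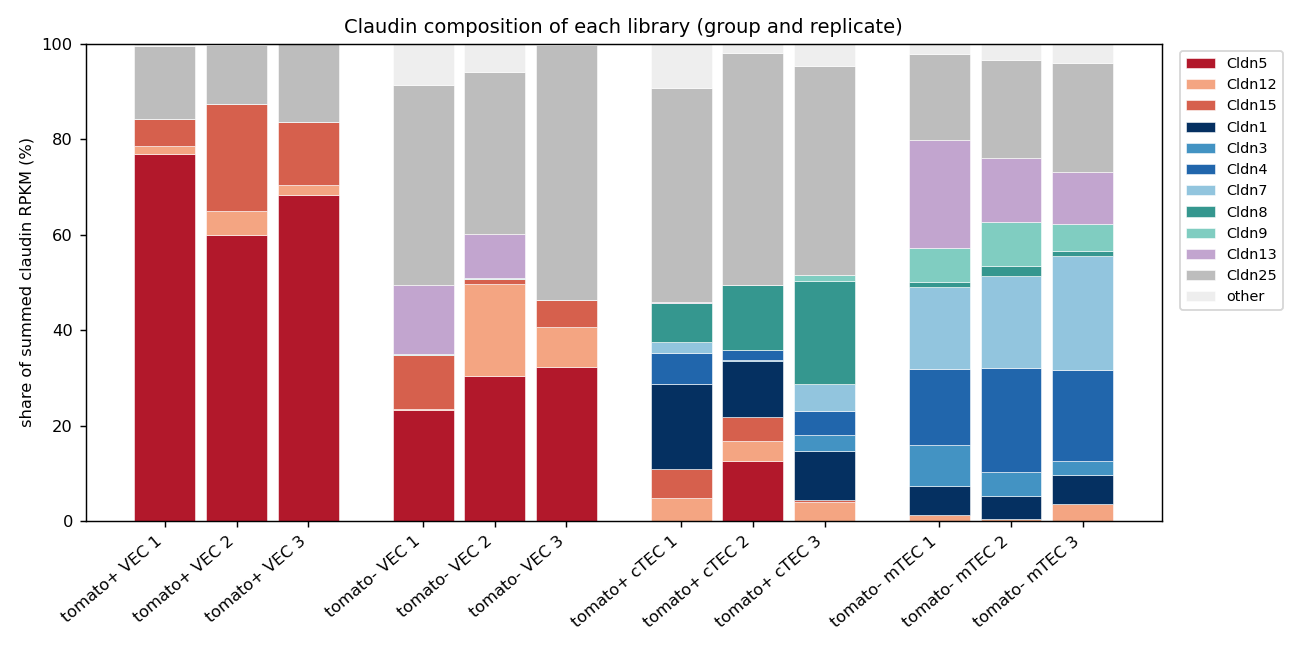
Share of each claudin symbol in the summed RPKM of 25 claudin symbols, as stacked bars that reach 100% for each of the 12 libraries, labelled by group and replicate. A share also moves with the levels of the other claudins. Cldn5 fills 59.9 to 76.9% of the bar in the tomato+ VEC libraries. Cldn4 fills 2.11 to 6.43% in cTEC and 16.02 to 21.7% in mTEC, Cldn1 10.4 to 17.7% in cTEC and 4.73 to 6.04% in mTEC, and Cldn13 0 to 14.6% in tomato- VEC and 10.9 to 22.6% in mTEC; Cldn25 is an ambiguous symbol.

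Other genes of cell junctions were read from lists chosen by role, of which 39 of 67 tested genes (58.2%) were called in VEC against TEC, beside 36.3% of all tested genes. These lists too were chosen with earlier results of these data known, so the shares called here and below describe them and test nothing. Of the 20 other claudins listed 8 were tested, and VEC against TEC 1 was higher (Cldn15) and 4 lower (Cldn8, Cldn9, Cldn10 and Cldn23). Their median log2 fold change was -3.69, or -3.67 with bounds in place of fitted values, beside -0.18 over all tested genes. The median of -3.69 lies between the fitted values of Cldn10 (-6.13) and Cldn11 (-1.25). For Cldn11 the counts went the other way, with 347 in VEC and 55 in TEC, a ratio 7.50-fold higher in VEC. Cldn11 had 0 counts in tomato+ VEC, so its fitted sign depends on the fit's prior. Cldn15 was higher in VEC (log2 fold change 5.42 ± 0.97 (SE), edgeR adjusted p = 0.000928) and Cldn8 had 1 count in VEC and 1886 in TEC (edgeR adjusted p = 2.65e-05).

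Of 8 listed relatives of F11r 6 were tested, and these were all called in 1 direction or the other. Of all tested genes 36.3% were called (14.4% higher and 21.8% lower). Of 6 tested JAM and related immunoglobulin genes 3 were higher in VEC, namely Jam2, Jam3 and Esam, and 3 were lower, namely Cxadr, Clmp and Gpa33, with a median of 0.79. Jam2 averaged 762 ± 192 CPM in tomato+ VEC and 485 ± 115 CPM in tomato- VEC, against 7.88 ± 12.9 CPM in cTEC and 0.223 ± 0.194 CPM in mTEC (SD, n = 3 each). Its log2 fold change, VEC over TEC, was 8.81 ± 1.05 (SE, edgeR adjusted p = 4.52e-05). Esam, an adhesion molecule of endothelium and platelets, averaged 1108 ± 151 CPM in tomato+ VEC and 1275 ± 296 CPM in tomato- VEC, against 27.1 ± 43.1 CPM in cTEC and 14.5 ± 4.15 CPM in mTEC (SD, n = 3 each). Cxadr, the coxsackievirus and adenovirus receptor of epithelial junctions, had a log2 fold change of -3.79 ± 0.75 (SE, edgeR adjusted p = 0.00186).

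Of 5 tested tricellular and MARVEL genes, the relatives of Ocln, 1 was higher in VEC (Marveld1) and 3 were lower (Marveld3, Lsr and Ildr1), with a median of -5.21. Of all tested genes 14.4% were higher and 21.8% lower. Lsr, which encodes angulin-1 at corners where 3 cells meet, had 107 counts in VEC and 2068 in TEC (log2 fold change -5.21 ± 1.12 (SE), edgeR adjusted p = 0.00331). Of 22 tested plaque and scaffold genes, the companions of Tjp1, 5 were higher and 3 lower, with a median of 0.26; these 8 are a share like the 36.3% of all tested genes. Mllt4, which encodes the actin-binding afadin, was higher in VEC (2.78 ± 0.26 (SE), edgeR adjusted p = 6.55e-06). Cgn, which encodes cingulin, had 5 counts in VEC and 3631 in TEC (edgeR adjusted p = 7.33e-07). Tjp3, which encodes the zonula occludens protein ZO-3, did not pass, with a log2 fold change of -1.78 ± 0.85 (SE, edgeR adjusted p = 0.126).

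Of 14 tested polarity genes none was higher in VEC and 6 were lower, namely Pard3, Pard6b, Pard6g, Prkci, Crb3 and Mpp5, with a median of -1.37, where 36.3% of all tested genes were called and 21.8% were lower. Crb3, the epithelial Crumbs protein, had no count in VEC and 503 in TEC and was at least 141-fold lower (edgeR adjusted p = 0.000813). Of 12 tested adherens junction genes 5 were higher (Cdh5, Ctnna1, Ctnnb1, Ctnnd1 and Pvrl2) and 5 lower (Cdh1, Cdh2, Cdh3, Pvrl1 and Pvrl4), with a median of -0.13. Cdh5, the endothelial cadherin, and Cdh1, the epithelial one, stood at the ends of this list, at log2 fold changes of 8.20 ± 1.05 and -11.28 ± 0.47 (SE, edgeR adjusted p = 8.08e-05 and 1.19e-08).

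**Figure D4:**
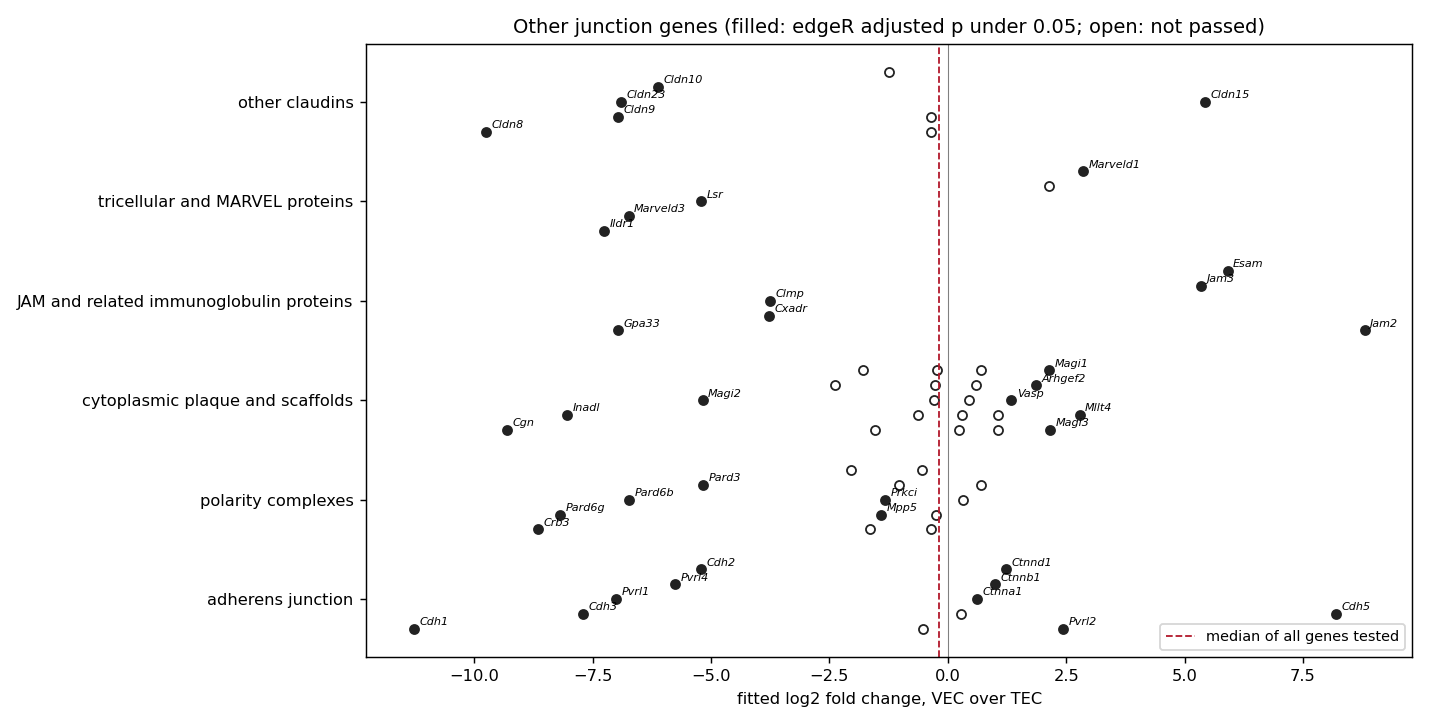
Fitted log2 fold change of VEC over TEC for each tested gene of 6 junction lists (points), with the median of all tested genes at -0.18 as a dashed line; filled points, named, passed an edgeR adjusted p under 0.05. Each list but the polarity complexes has filled points on both sides, and fitted values of genes with few or no counts in VEC, such as Crb3, are no bound.

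Between the VEC groups 4 of the 67 tested genes of these lists passed the test (5.97%), beside 1.65% of all tested genes. Mllt4 averaged 681 ± 301 CPM in tomato+ VEC and 166 ± 27.2 CPM in tomato- VEC (SD, n = 3 each) and was higher in tomato+ VEC (log2 fold change 2.03 ± 0.36 (SE), edgeR adjusted p = 0.0141). Jup, which encodes plakoglobin of adherens junctions and desmosomes, was higher at 126 ± 16.1 CPM in tomato+ VEC, against 25.9 ± 10.5 CPM in tomato- VEC (SD, n = 3 each; 2.29 ± 0.35 (SE), edgeR adjusted p = 0.00725). Mpp5, which encodes the polarity scaffold PALS1, was lower at 6.52 ± 3.11 CPM in tomato+ VEC, against 54.6 ± 25.5 CPM in tomato- VEC (SD, n = 3 each; -3.06 ± 0.53 (SE), edgeR adjusted p = 0.0136). For Pvrl1, which encodes nectin-1, 1 count in tomato+ VEC stood against 188 in tomato- VEC, a ratio 183-fold lower in tomato+ VEC (95% counting interval 32.5 to 7270.1; edgeR adjusted p = 0.00752). With the 6 VEC libraries alone none of the 22 plaque, 14 polarity or 12 adherens genes passed.

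Between the epithelial groups 8 of the 67 passed (11.9%), beside 7.83% of all tested genes. Cldn15 was higher in cTEC with 292 counts, against 2 in mTEC (edgeR adjusted p = 0.0191), and Cldn13 was lower with 2 counts in cTEC, against 1448 in mTEC (edgeR adjusted p = 0.0205). Magi1, a scaffold of the membrane-associated guanylate kinase family, averaged 14.7 ± 4.65 CPM in cTEC and 99.7 ± 21.1 CPM in mTEC (SD, n = 3 each) and was lower in cTEC (-2.76 ± 0.37 (SE), edgeR adjusted p = 0.00120). Amotl1, an angiomotin-like junction protein, was higher in cTEC (2.06 ± 0.33 (SE), edgeR adjusted p = 0.00351), as was Amotl2 (2.14 ± 0.43 (SE), edgeR adjusted p = 0.0121). Prkci, an atypical protein kinase C of the polarity complex, was higher in cTEC as well (2.08 ± 0.51 (SE), edgeR adjusted p = 0.0286). The other 2 were Tuba1a, lower in cTEC, and Ctnnb1, higher in cTEC. Leaving out cTEC replicate 1, or mTEC replicate 1 or 2, left no called gene among the other claudins. The call of Prkci was lost without cTEC replicate 1 or 2 or any of the mTEC libraries, and that of Ctnnb1 without tomato+ VEC replicate 2 or any of the cTEC or mTEC libraries.

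The genes nearest to each member in pattern were found by the root-mean-square difference between gene-centred log2(CPM + 1) profiles over the 12 libraries, among 10696 genes. Cldn1 lay nearest to Pkp1, a desmosomal plakophilin gene (0.186), and also near to Cgn (0.228). Cldn3 lay nearest to Grp (0.239), Cldn4 to Rnf180 (0.308) and Cldn7 to Aldh3a1 (0.284). Cldn5 lay nearest to Rasgrp3 (0.548) and Ly6c1 (0.554), and Ly6c1 averaged 6603 ± 506 CPM in tomato+ VEC, 1105 ± 203 CPM in tomato- VEC, 135 ± 162 CPM in cTEC and 47.1 ± 17.8 CPM in mTEC (SD, n = 3 each). F11r lay nearest to Msn, the moesin gene (0.234), which averaged 1217 ± 204 CPM in tomato+ VEC, 1206 ± 211 CPM in tomato- VEC, 155 ± 35.0 CPM in cTEC and 496 ± 18.1 CPM in mTEC (SD, n = 3 each). Tjp1 lay nearest to Eva1a (0.408) and Col4a1 (0.463). The nearest gene to Ocln was Knstrn (0.767), farther than the nearest gene of any other member.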

How the data were processed

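RNA of sorted cells was made into libraries with a SMARTer ultra-low input kit, per the labels' protocols. Reads were handled with TopHat2 (2.0.10) on mm9, per the submitters' processing notes. How reads were counted, and on which annotation, is not given in the sources used here. Per the file headers, the authors deposited whole-number read counts and RPKM values per gene symbol. Whether counting used strand is not given either.

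Tests of the counts used R 4.3.3 and edgeR 4.0.16: filterByExpr (minimum count 10), TMM scaling and a quasi-likelihood fit of the 4 groups over all 12 libraries with 8 residual degrees of freedom. VEC over TEC weighs both populations of each equally. Benjamini-Hochberg adjustment ran over all 14792 tested genes, and an adjusted p under 0.05 was a call. The SE given with an edgeR value was back-calculated, as the absolute log2 fold change divided by the square root of the test's F statistic. Scripts were tested on simulated counts. Replicates of a group differed by more than sampling noise, at a chi-square of 39.4 to 132 per degree of freedom over 12 pairs. Alternatives were DESeq2 1.42.0, limma 3.58.1 on log2(RPKM + 1) and log2(RPKM + 0.1), RLE scaling, other filters, the replicate number as a block, only the 6 libraries compared (within VEC and within TEC), and each library left out. For shares they were CPM in place of RPKM, only the 6 member claudins, no Cldn25, and each library left out.

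All members were named, with up to 4 called genes of smallest p per junction list and direction, and the 3 nearest profiles among genes of at least 5 CPM on average. Genes beyond that stand in the counts of their lists. A few genes that this rule names are not reported here. Members and lists were chosen with earlier results of these data known. All 9 members had a RefSeq promoter entry, in GRCm38.p6 coordinates, which differ from those of mm9.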

Additional observations from a re-analysis of the deposited data

Results flagged for a closer look

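Over the 6 VEC or 6 TEC libraries, 4 members had a library whose gap to its nearest neighbour, as a part of the range, passed Dixon's 95% critical value for 6 samples. That value's rate of about 1 in 20 holds for draws from a single normal distribution. Each set here pools tomato+ with tomato- VEC, or cTEC with mTEC, so the rate does not apply. Every member was screened in each set where it had counts. The gap was 0.989 of the range for Cldn5 in TEC (cTEC replicate 2), 0.992 for Ocln in VEC (tomato- VEC replicate 1) and 0.672 for Cldn1 in TEC (cTEC replicate 1). For Cldn4 in VEC it was 1, which having counts in a single library fixes, tomato+ VEC replicate 3 with 2 counts.

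For 5 of 67 tested genes of the other junction lists (7.46%, beside 3.08% of all tested genes) the endothelial reporter contrast differed from the contrast of cTEC with mTEC, by a test of the difference of log2 fold changes. It was 3.29 for Magi1, 2.00 for Tuba1a, -2.33 for Amotl1, -3.39 for Mpp5 and -8.17 for Pvrl1, whose fitted value rests on 1 count in tomato+ VEC. The Mpp5 call was lost without tomato- VEC replicate 1 or 3 or any of the cTEC or mTEC libraries. Each difference also holds the change of gate between cTEC and mTEC.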

How the results depend on the processing

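VEC against TEC, 8 members passed under each of 19 alternatives, and the 6 member shares of claudin RPKM kept their direction under each of 15. Between VEC groups no member passed; DESeq2 called 2, at least 5 CPM in 3 libraries called 1, the 6 libraries alone called 1, and leaving out a library gave 0 to 1. Between cTEC and mTEC 2 passed; DESeq2 called 4, limma called 5 at log2(RPKM + 1) and 4 at log2(RPKM + 0.1), and leaving out a library gave 0 to 2. For the difference of both contrasts no member passed, and limma called 3 and 1.

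Over all genes, 244 calls between VEC groups became 1253 with DESeq2, 473 and 447 with limma, 112 with 6 libraries and 174 to 394 with a library left out, the 394 without tomato+ VEC replicate 3. The 1158 calls between cTEC and mTEC became 1973 with DESeq2, 2530 and 2172 with limma, 2487 with 6 libraries and 428 to 1193 with a library left out. The 456 calls for the difference became 1418, 1766, 1529 and 159 to 491.

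Log2 values turned in sign for some members that were not called. Between VEC groups, leaving out a library gave -0.95 to 1.24 for Cldn12, -0.24 to 0.031 for F11r and -8.73 to 2.05 for Ocln. Between cTEC and mTEC it gave -0.036 to 0.33 for Cldn1 and -1.28 to 6.83 for Cldn5. For the difference it gave -4.32 to 3.82 for Cldn5, -1.34 to 0.84 for Cldn12 and -5.90 to 4.82 for Ocln, and limma at both pseudocounts gave 1.07 and 0.47 for Cldn5 and 1.71 and 1.63 for Ocln, with 0.053 for Cldn12 at the smaller one. The cause was not tested. Cldn1, Cldn3, Cldn4 and Cldn7, with at most 2 counts per VEC group, were not followed across alternatives between VEC groups or for the difference.

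Any pairing of samples by replicate number was weak: none of 18 same-numbered pairs had a correlation of deviations above 0.1 (-0.01 to 0.08). In 21 of 36 cases a sample correlated best with its own number, so a weak pairing is not excluded. With the block, 1 member passed between cTEC and mTEC, Cldn4 having an edgeR adjusted p of 0.0791, and the calls for the difference became 269. Depth limits Cldn3, Cldn4 and Cldn7 in VEC, where 1 read is about 0.1 CPM.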

Other observations

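The summed RPKM of the 25 claudin symbols was 217, 343 and 215 in tomato+ VEC libraries and 158, 97.6 and 93.2 in tomato- VEC libraries. It was 146, 137 and 172 in cTEC libraries and 302, 336 and 247 in mTEC libraries. Tomato+ VEC replicate 2 had the highest sum, at a Cldn5 share of 59.9%, the lowest of its group.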
